A study of Mus musculus with 20 samples.

Results

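The glycerophosphodiester phosphodiesterase genes Gde1, Gdpd1, Gdpd2, Gdpd3 and Gdpd5 were described across 20 brain libraries of NMRI mice, an outbred stock. They are 5 of the 55487 gene entries counted in each library, chosen as family members listed by name and matched by Ensembl identifier. Gdpd3 was selected on its measured CPM per library, near absent in some libraries and clear in others, alike in both tissues. All animals had undergone olfactory bulbectomy, a surgical model of sporadic Alzheimer's disease, and from day 14 after surgery they received a recombinant human chaperone intranasally once a day for 21 days. The 4 groups of 5 libraries were hippocampus with YB-1 (6.4 μg), hippocampus with HSP70 (4 μg), cortex with YB-1 and cortex with HSP70. Treatments are compared as YB-1 over HSP70 and tissues as hippocampus over cortex. No unoperated or vehicle-treated animals were analysed here, and a difference between the chaperones does not say which of them moved a gene.

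Enzymes of this family cleave glycerophosphodiesters or lysophospholipids into an alcohol and a phosphate-bearing product, and share a catalytic domain. GDE1, the product of Gde1, is a membrane enzyme that acts on glycerophosphoinositol and on the glycerophospho-N-acylethanolamine precursors of anandamide. The products of Gdpd1 and Gdpd3, also called GDE4 and GDE7, have lysophospholipase D activity and yield lysophosphatidic acid or N-acylethanolamines. The products of Gdpd5 and Gdpd2, called GDE2 and GDE3, are multi-pass membrane proteins that act at the cell surface, where GDE2 releases proteins held by a glycosylphosphatidylinositol anchor and takes part in neuronal differentiation.

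Stretches before the annotated starts of 3 of the genes are shown because Gdpd3 was on or off by library, Gde1 was among the most even genes of these data and Gdpd2 was the member that differed between tissues. The sequences are the 250 bases upstream of the start in RefSeq GRCm38.p6, the strain C57BL/6J and not the stock sequenced here; the counts were made on GRCm39, so these positions do not apply to them. Both strands were searched for TATAAA (the TATA box), CCAAT (the CCAAT box), GGGCGG (the GC box) and CACGTG (the E-box), which do not overlap in these stretches, and capitals mark a match on either strand.
Gdpd3 (chr7:126766164-126766413, plus strand): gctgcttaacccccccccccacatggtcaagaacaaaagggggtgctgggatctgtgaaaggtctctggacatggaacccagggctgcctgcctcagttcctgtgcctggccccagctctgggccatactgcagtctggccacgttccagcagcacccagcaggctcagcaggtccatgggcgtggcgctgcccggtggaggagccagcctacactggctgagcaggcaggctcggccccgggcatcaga
Gde1 (chr7:118705739-118705988, minus strand): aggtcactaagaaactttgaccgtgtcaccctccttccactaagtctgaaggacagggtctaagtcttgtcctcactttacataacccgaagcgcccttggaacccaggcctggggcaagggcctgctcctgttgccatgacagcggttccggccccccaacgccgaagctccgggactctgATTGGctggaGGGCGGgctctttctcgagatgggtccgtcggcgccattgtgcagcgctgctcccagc
Gdpd2 (chrX:100729597-100729846, plus strand): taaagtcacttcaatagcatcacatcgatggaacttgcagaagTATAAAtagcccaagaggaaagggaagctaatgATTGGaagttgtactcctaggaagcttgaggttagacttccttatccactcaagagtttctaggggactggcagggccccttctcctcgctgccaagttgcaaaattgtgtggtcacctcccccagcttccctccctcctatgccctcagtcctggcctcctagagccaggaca

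The Gdpd3 stretch held none of the 4 motifs and 6 CG dinucleotides, the median of the 32851 promoters in the table. That of Gde1 held 14 CG dinucleotides, a CCAAT match on the minus strand of the printed sequence and a GGGCGG match. The Gdpd2 stretch, the first of the 2 starts listed for this gene, held 2 CG dinucleotides, a TATAAA match and a CCAAT match. Its TATAAA match lies toward the end of the stretch that is far from the start. The stretch before the second Gdpd2 start held 7 CG dinucleotides and none of the 4 motifs. Whether any match works as a promoter element was not tested. TATAAA occurs in 12.4%, CCAAT in 33.8%, GGGCGG in 32.7% and CACGTG in 6.02% of the promoter stretches of the same length.

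The libraries held 6414215 to 15148078 reads assigned to genes. Hippocampal libraries had 7236195 to 10166968 reads with YB-1 and 7756835 to 13053910 with HSP70. Cortical libraries had 6414215 to 10763465 reads with YB-1 and 12283392 to 15148078 with HSP70, so that depth did not overlap between treatments in the cortex. Of the marker lists, 6 hippocampal genes summed to 375 to 597 CPM (reads relative to library size, scaled by the trimmed mean of M values, TMM) in the hippocampus and 192 to 424 CPM in the cortex, and the ranges overlapped. The sums of 6 cortical genes were 116 to 177 CPM in the hippocampus and 386 to 486 CPM in the cortex, without overlap. The labels do not say which libraries come from 1 animal, nor that those of a group come from separate animals, so p-values measure the spread between these libraries. In bulk tissue, fewer cells of a type and less RNA per cell cannot be told apart.

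Gdpd3 (ENSMUSG00000030703, chromosome 7) was near absent in 8 libraries and clearly present in 12. In the hippocampus with YB-1 its level was 39.3, 20.8, 10.5, 0 and 24.9 CPM in replicates 1 to 5, against 0.0956, 0.118, 0, 24.6 and 22.7 CPM with HSP70. In the cortex it was 41.1, 13.3, 8.69, 0.551 and 33.9 CPM with YB-1, against 0.208, 0.0827, 0.468, 14.1 and 10.3 CPM with HSP70. The same replicates were low in both tissues, namely replicate 4 with YB-1 and replicates 1, 2 and 3 with HSP70. No library lay between 0.551 CPM, the highest of the low values, and 8.69 CPM, the lowest of the others.

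**Figure D1:**
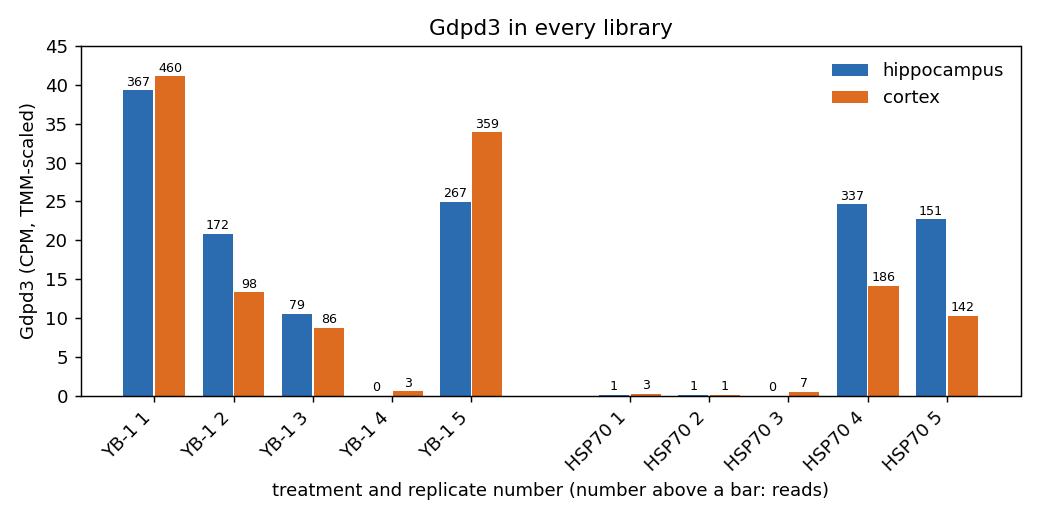
Gdpd3 level in CPM (TMM-scaled, bars) in the hippocampal (blue) and cortical (orange) library of each treatment and replicate number, with the read count above each bar. Replicate 4 with YB-1 and replicates 1 to 3 with HSP70 stood at or below 0.551 CPM in both tissues, and every other library stood at 8.69 CPM or more.

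Since the gene was chosen for this pattern, its levels are a description and no test is given. The reads behind the low values numbered 0 to 7 a library, and those behind the others 79 to 460. In the 2 hippocampal libraries with no read, replicate 4 with YB-1 and replicate 3 with HSP70, a count of 0 allows a level of up to 0.406 and 0.306 CPM, for counting error only. Of the 5 libraries of each group, 4 with YB-1 and 2 with HSP70 were on the high side, in the hippocampus and in the cortex alike. Both treatments thus held libraries of either kind, and their ranges overlapped in each tissue.

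Among the libraries that expressed the gene, the level also varied. With YB-1 it ran between 10.5 and 39.3 CPM in the hippocampus and between 8.69 and 41.1 CPM in the cortex, with replicate 1 highest and replicate 3 lowest in both. The hippocampal value was 0.956, 1.56, 1.21 and 0.736 times the cortical one for replicates 1, 2, 3 and 5 with YB-1. For replicates 4 and 5 with HSP70 it was 1.74 and 2.20 times the cortical one. The hippocampus was higher in 4 of these 6 pairs.

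The spread of Gdpd3 within groups, as the pooled SD of log2 CPM (prior count 2), was 2.97. Of 14616 genes that passed the filter on low counts, 2 had a larger one, and the median was 0.36. Gdpd1, Gdpd2 and Gdpd5 lay near that median, at 0.31, 0.36 and 0.32. Gde1, at 0.11, had a smaller SD than all but 50 genes. All 5 members passed the filter, Gdpd3 through its high libraries. The value of Gdpd3 restates the pattern it was chosen for.

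A noncoding gene on the opposite strand of Gdpd3, Gm9967, was counted at 0 to 2.12 CPM. The strand setting of the counting is not given in the sources used here, and reads of overlapping genes may be shared or dropped. Gdpd2 and Gde1 also have an opposite-strand partner in the annotation, Gm14866 at up to 0.303 CPM and Gm45236 with no read in any library.

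The genes beside Gdpd3 did not show its gap. On one side lie, from far to near, Sult1a1, Slx1b, Bola2, Coro1a and Mapk3, and on the other, from near to far, Ypel3, Tbx6, Ppp4c, Aldoa and Fam57b, in the order of GENCODE M21, an annotation of GRCm38. Ypel3, a small zinc-binding protein gene and the next one downstream, had 81.01 to 109 CPM with YB-1 and 95.97 to 125 CPM with HSP70 in the hippocampus, and 104 to 122 CPM with YB-1 and 114 to 128 CPM with HSP70 in the cortex. Mapk3, which encodes the kinase ERK1 and lies next upstream, had 258 to 470 CPM over the 20 libraries. Tbx6, a T-box factor gene of early mesoderm, was hardly detected, at 0 to 0.505 CPM. For the other 9 neighbours the highest library stood 1.56 (Aldoa, a glycolytic enzyme) to 4.35 times (Bola2) above the lowest.

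**Figure D2:**
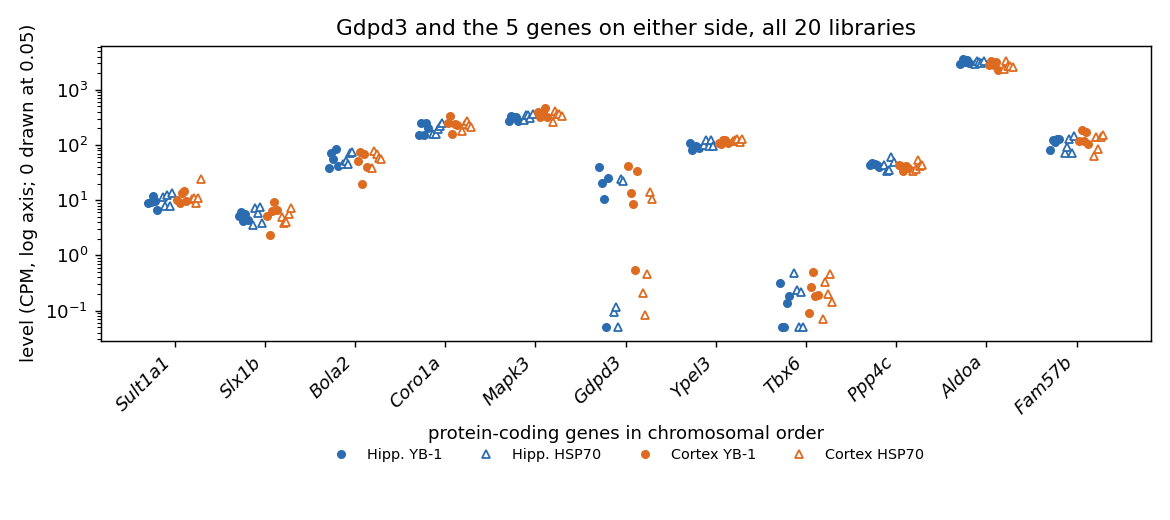
Level in CPM (log axis, with 0 drawn at 0.05) of Gdpd3 and the 5 protein-coding genes on either side, 1 point for each of the 20 libraries; filled circles are YB-1, open triangles HSP70, blue hippocampus and orange cortex. Gdpd3 falls into a low and a high set of libraries, while Ypel3 stays between 81.01 and 128 CPM and Mapk3 between 258 and 470 CPM.

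Genes with a profile like that of Gdpd3 were looked for by scaling log2 CPM to 0 at the lowest and 1 at the highest library of each tissue and taking the mean absolute difference from Gdpd3 over the 20 libraries, in which libraries of 1 number deviate together across tissues. The median difference over 13982 genes was 0.42. The 5 most alike were A2m (0.14), a protease inhibitor gene on chromosome 6, Fxyd5 (0.17, chromosome 7), a regulator of the sodium pump, Tyrobp (0.17, chromosome 7), an adaptor of microglial receptors, Cmklr1 (0.17, chromosome 5), the chemerin receptor gene, and H2-Q7 (0.17, chromosome 17), a class Ib MHC gene. None of the Gdpd3 neighbours was among them. The 9 neighbours with at least 1 CPM on average differed by 0.35 to 0.54, with Ppp4c nearest, at place 2841.

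A2m and Tyrobp were like Gdpd3 in order more than in size. Spearman's rank correlation in hippocampus and cortex was 0.875 and 0.879 for A2m and 0.875 and 0.939 for Tyrobp. It was lower for Fxyd5 (0.736 and 0.855), Cmklr1 (0.644 and 0.685) and H2-Q7 (0.687 and 0.733). All were picked for their likeness to Gdpd3. A2m had 22.1, 14.1, 19.5, 9.88 and 23.4 CPM in hippocampal replicates 1 to 5 with YB-1, against 14.0, 9.08, 12.4, 23.01 and 20.9 CPM with HSP70. In the cortex it had 8.22, 6.51, 3.84, 1.10 and 8.96 CPM with YB-1, against 2.22, 1.24, 2.61, 4.41 and 5.95 CPM with HSP70. The 4 lowest libraries of each tissue were the same for A2m and Gdpd3, and likewise for Tyrobp and Gdpd3. Unlike Gdpd3, A2m was never near 0 in the hippocampus.

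H2-Q7 came nearest to an on-off pattern, with 61.6, 89.0, 40.3, 2.17 and 67.3 CPM in hippocampal replicates 1 to 5 with YB-1, against 40.8, 2.95, 25.9, 67.9 and 33.8 CPM with HSP70. It was low in replicate 4 with YB-1 and replicate 2 with HSP70 in both tissues. In replicates 1 and 3 with HSP70 it was well expressed, which Gdpd3 was not. The reverse of the Gdpd3 profile was matched best by AC166110.4, a long noncoding RNA gene on chromosome 17, with a difference of 0.18. It had 3.79 CPM in hippocampal replicate 4 with YB-1 and no read in the other 4, against 5.78 and 3.67 CPM in replicates 2 and 3 with HSP70 and no read in the other 3. Gprasp2 (0.19, chromosome X) and Rps4l (0.20, chromosome 6), a transcribed pseudogene, came next.

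**Figure D3:**
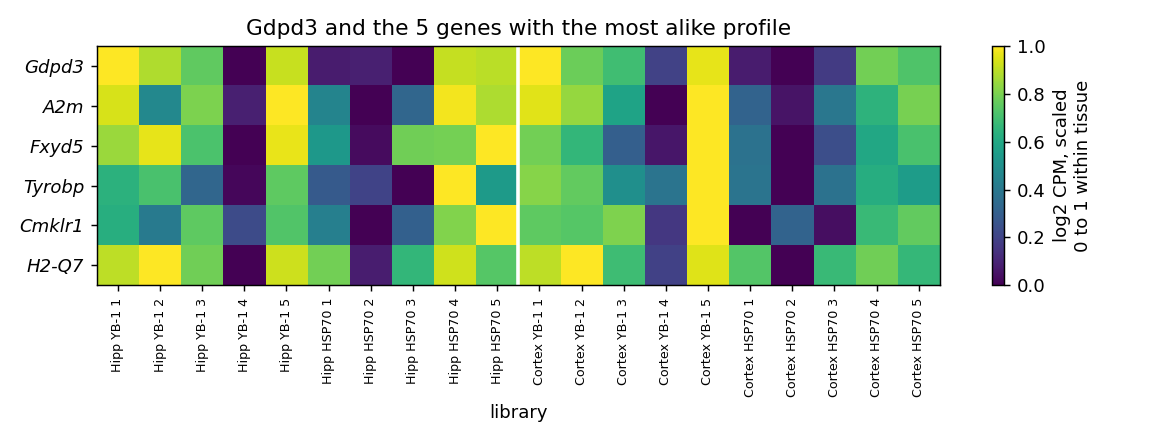
Log2 CPM of Gdpd3 and the 5 genes with the most alike profile (rows) in the 20 libraries (columns), scaled to 0 (dark) at the lowest and 1 (light) at the highest library of each tissue; the white line parts hippocampus and cortex. The 4 lowest libraries of each tissue are the same for Gdpd3, A2m and Tyrobp.

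By the same measure on log2 of the summed CPM plus 1, markers of astrocytes (6 genes) differed from Gdpd3 by 0.19, those of ependyma by 0.24, of microglia by 0.24 and of endothelium by 0.26, and those of neurons and of cortex by 0.51 and 0.58. The remaining lists lay between, at 0.29 (choroid plexus) to 0.54 (GABAergic neurons). The astrocyte sum ran from 3244 to 4546 CPM with YB-1 and from 3801 to 4594 CPM with HSP70 in the hippocampus. In the cortex it ran from 3423 to 3932 CPM with YB-1 and from 2607 to 3587 CPM with HSP70. Its range was narrow beside that of Gdpd3, which went down to 0. All 6 astrocyte markers had reads in every library. The part of these cell types in the Gdpd3 pattern was not tested.

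Gde1 (ENSMUSG00000033917, chromosome 7) was the most abundant member and the most even one. In hippocampal replicates 1 to 5 it had 142, 140.01, 145, 144 and 125 CPM with YB-1, against 153, 149, 129, 163 and 160.5 CPM with HSP70. In the cortex it had 162, 136, 158, 178 and 157 CPM with YB-1, against 141, 148, 158, 148 and 154 CPM with HSP70. All 4 groups overlapped. Per kilobase of annotated exons Gde1 averaged 88.4 CPM over the 20 libraries, Gdpd1 8.15, Gdpd5 6.38, Gdpd3 6.08 and Gdpd2 1.24 CPM. Of neighbours in this order, the library ranges overlapped for Gdpd1 and Gdpd5, for Gdpd5 and Gdpd3 and for Gdpd3 and Gdpd2, and Gde1 lay above all others.

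Gdpd1 (ENSMUSG00000061666, chromosome 11), the gene closest in activity to Gdpd3, was present in every library. With YB-1 it had 25.4, 18.7, 25.1, 20.2 and 15.4 CPM in hippocampal replicates 1 to 5, against 23.2, 24.4, 20.4, 19.9 and 12.5 CPM with HSP70. In the cortex it had 16.6, 16.004, 16.3, 14.5 and 14.4 CPM with YB-1, against 27.2, 17.04, 23.3, 14.1 and 16.3 CPM with HSP70. Its profile differed from that of Gdpd3 by 0.57, place 13803 of 13982, the least alike of the members. Gdpd5 differed by 0.30 (place 1149), Gdpd2 by 0.33 (place 2045) and Gde1 by 0.41 (place 6148). Replicates 1 and 3 of the cortical HSP70 group, where Gdpd3 was near absent, were the 2 highest cortical Gdpd1 values. Cortical replicate 4 with YB-1, also near absent in Gdpd3, was among the low ones, at 14.5 CPM. In the hippocampus the 2 highest Gdpd1 values were replicates 1 and 3 with YB-1, where Gdpd3 was clearly present.

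Gdpd5 (ENSMUSG00000035314, chromosome 7) had 41.5, 37.0, 45.3, 38.6 and 43.2 CPM in hippocampal replicates 1 to 5 with YB-1, against 32.9, 35.03, 39.5, 46.03 and 56.5 CPM with HSP70. Its cortical values were 52.8, 57.1, 42.7, 58.7 and 32.4 CPM with YB-1, against 24.6, 51.5, 34.9, 44.4 and 45.3 CPM with HSP70. The groups overlapped in both tissues. Gdpd4, the family gene outside the list, had at most 2 reads in a library.

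**Figure D4:**
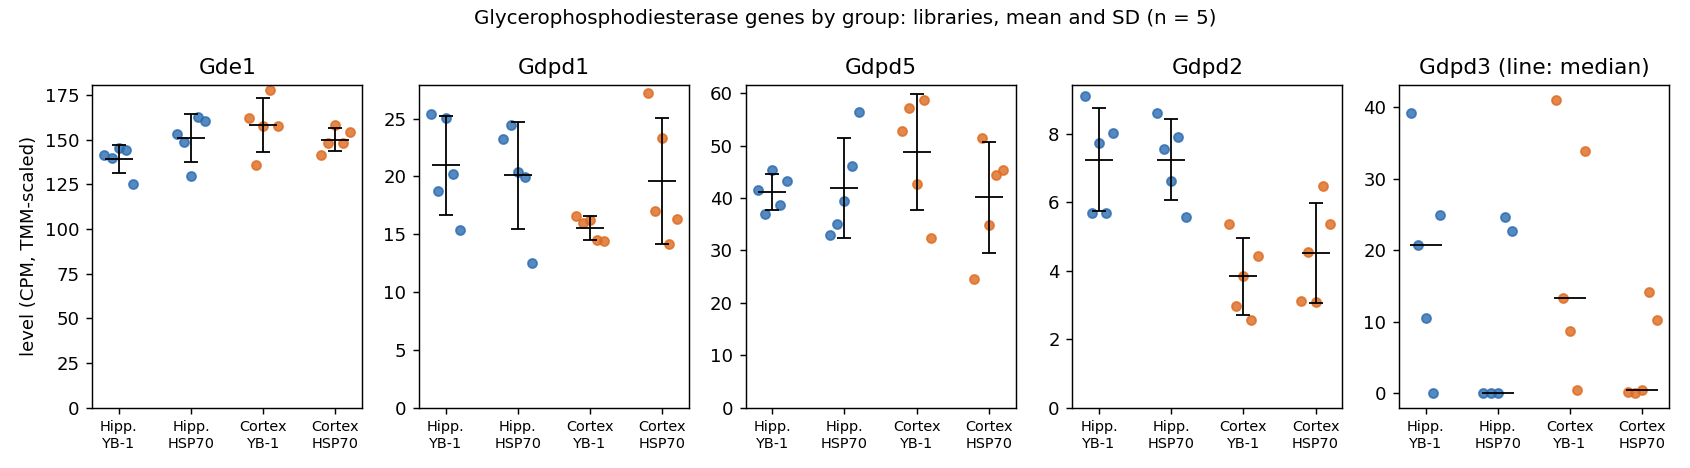
Level in CPM (TMM-scaled) of the 5 genes in each library, by group; horizontal lines with bars give mean and SD (n = 5), and for Gdpd3 the line is the median. Gde1, Gdpd1 and Gdpd5 overlap between all groups, Gdpd2 is higher in the hippocampus than in the cortex, and Gdpd3 splits within groups.

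Gdpd2 (ENSMUSG00000019359, chromosome X) was the member that rose in the hippocampus relative to the cortex. In hippocampal replicates 1 to 5 it had 9.09, 5.68, 7.73, 5.69 and 8.03 CPM with YB-1 and 8.60, 7.55, 6.62, 7.89 and 5.56 CPM with HSP70, and in the cortex 5.36, 2.98, 3.84, 2.57 and 4.43 CPM with YB-1 and 3.12, 4.55, 3.08, 6.46 and 5.37 CPM with HSP70. All but 1 cortical library lay below every hippocampal one, and the hippocampal library was the higher one of all 10 same-numbered pairs. The means were 7.24 ± 1.28 CPM in the hippocampus and 4.18 ± 1.28 CPM in the cortex (SD, n = 10 each). The log2 fold change was 0.79 ± 0.18 (SE, 95% interval 0.43 to 1.16), with an adjusted p of 0.00213 in edgeR's quasi-likelihood test. That fit did not pair same-numbered libraries. In that comparison 15.9% of 14616 genes passed at an adjusted p of 0.05 and 8.55% passed on the higher side (7.32% on the lower), against 1 of the 4 members tested; at an unadjusted p under 0.05 it was 26.8%, again against 1 of 4.

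Markers of other cell types differed between the tissues in both directions. Those of oligodendrocytes summed to 3673 to 6826 CPM in the hippocampus and 1359 to 2499 CPM in the cortex, and those of ependyma to 23.6 to 76.04 and 8.04 to 20.7 CPM, both without overlap. Choroid plexus markers summed to 34.4 to 1604 CPM in the hippocampus and 7.89 to 153 CPM in the cortex, and astrocyte markers to 3244 to 4594 and 2607 to 3932 CPM. Markers of oligodendrocyte precursors were higher in the hippocampus too, at 108 to 147 CPM against 77.1 to 118 CPM in the cortex. Neuronal markers were lower in the hippocampus without overlap, at 1552 to 2011 CPM against 2164 to 2785 CPM in the cortex. The medians of the GABAergic neuron, microglial, endothelial, meningeal and blood lists were also lower there, at 487, 963, 175, 1154 and 185 CPM in the hippocampus against 651, 1162, 214, 1702 and 216 CPM in the cortex, with ranges that overlapped. All 6 oligodendrocyte, all 5 ependymal and all 6 astrocyte markers had reads in every library, and of the 6 choroid plexus markers 3 did in the cortex. Their part in the Gdpd2 difference was not tested.

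The other members did not pass between tissues, which does not show that they were alike. The log2 fold change of hippocampus over cortex was 0.23 for Gdpd1 (95% interval -0.050 to 0.51), -0.088 for Gdpd5 (-0.36 to 0.19) and -0.088 for Gde1 (-0.24 to 0.061). Their adjusted p in edgeR was 0.304, 0.746 and 0.498. Gdpd1 was higher in the hippocampus in 7 of 10 same-numbered pairs, Gdpd5 in 6 and Gde1 in 5.

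Between treatments none of the 4 members passed edgeR's test in either tissue. In the hippocampus 0% of 13723 genes were called, with 329 (2.4%) at an unadjusted p under 0.05, none of them a member. The log2 fold change of YB-1 over HSP70 there was 0.057 for Gdpd1 (95% interval -0.37 to 0.48), -0.00017 for Gdpd2 (-0.46 to 0.46), -0.027 for Gdpd5 (-0.36 to 0.31) and -0.12 for Gde1 (-0.34 to 0.11). The signs for Gdpd1, Gdpd2 and Gdpd5 changed with the processing and carry no direction. DESeq2 and limma-voom also called 0 genes, with 390 and 688 at an unadjusted p under 0.05.

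In the cortex the members lay further apart but did not pass either. The log2 fold change was -0.33 for Gdpd1 (95% interval -0.73 to 0.062), -0.21 for Gdpd2 (-0.81 to 0.38), 0.28 for Gdpd5 (-0.14 to 0.70) and 0.074 for Gde1 (-0.18 to 0.33). The smallest adjusted p of the 4 in edgeR was 0.858, and 0% of 14114 genes were called, with 774 (5.48%) at an unadjusted p under 0.05, none of them a member. DESeq2 called 4 and limma-voom 2 genes, with 844 and 974 at an unadjusted p under 0.05. Cortical depth did not overlap between the treatments, so depth and treatment cannot be told apart. Every member kept its sign after all libraries were thinned to the smallest total. Thinning keeps the expected share of each gene in its library, so it cannot separate the 2. The log2 fold changes without 1 cortical library ranged over -0.43 to -0.19 for Gdpd1, -0.37 to -0.052 for Gdpd2, 0.14 to 0.40 for Gdpd5 and 0.024 to 0.12 for Gde1; the lowest Gdpd1 size came without HSP70 replicate 1.

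The difference of the treatment effects between tissues, hippocampus minus cortex, was 0.39 ± 0.27 for Gdpd1, 0.21 ± 0.35 for Gdpd2, -0.31 ± 0.27 for Gdpd5 and -0.19 ± 0.14 for Gde1 (log2, SE). The adjusted p in edgeR was 1.0 for each, and 0% of 14616 genes were called, with 227 (1.55%) at an unadjusted p under 0.05, none of them a member. DESeq2 and limma-voom called 0 genes, with 276 and 302.

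**Figure D5:**
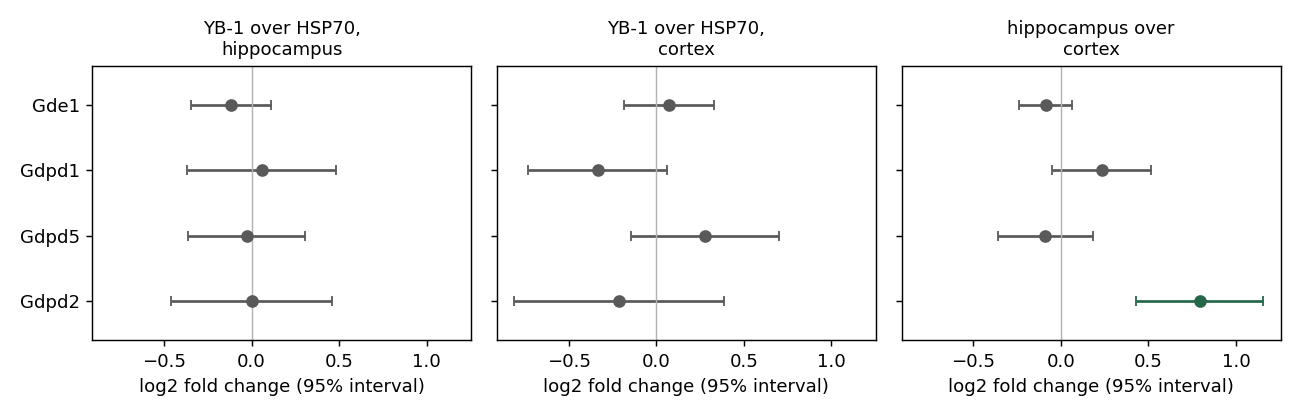
Log2 fold change (point) with 95% interval (bar) of Gde1, Gdpd1, Gdpd5 and Gdpd2 for YB-1 over HSP70 in the hippocampus, for YB-1 over HSP70 in the cortex and for hippocampus over cortex. The interval of Gdpd2 between tissues, 0.43 to 1.16 (green), leaves out 0, and each of the other 11 includes it.

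Genes around these enzymes were taken from 6 lists of 48 genes in all, of which 42 were tested. Between tissues 8 rose and 2 fell in the hippocampus, or 23.8% against the 15.9% of all genes, and their median log2 fold change was 0.084 against 0.00064 over all genes. Of the 9 tested genes of lysophosphatidic acid, Enpp2, which encodes autotaxin, the secreted lysophospholipase D, was at 351 ± 277 CPM in the hippocampus and 106 ± 30.6 CPM in the cortex (SD, n = 10 each; 1.74 ± 0.41, adjusted p = 0.00666 in edgeR). Its hippocampal libraries ran from 82.8 to 794 CPM and overlapped with the cortical ones. Plpp2, a lipid phosphatase gene, was at 9.05 ± 3.36 and 3.97 ± 0.971 CPM, with ranges that overlapped (1.19 ± 0.21, adjusted p = 0.000216 in edgeR). Enpp2 is known as an abundant transcript of the choroid plexus, whose marker sums are given above, and their part in this difference was not tested.

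Of 7 tested genes of the N-acylethanolamine pathway, which leads to anandamide, 2 rose and 2 fell in the hippocampus. Of all 14616 genes tested, 8.55% rose and 7.32% fell. Pla2g4e, an N-acyltransferase gene, was at 22.3 ± 3.13 CPM in the hippocampus and 39.5 ± 3.80 CPM in the cortex, without overlap (-0.83 ± 0.096, adjusted p = 5.6e-07 in edgeR). Plaat1, another acyltransferase gene, was at 5.13 ± 1.90 and 10.8 ± 2.85 CPM, with ranges that overlapped (-1.08 ± 0.20, adjusted p = 0.000281 in edgeR). The genes that rose were Abhd4 (0.29 ± 0.090), whose enzyme acts upstream of GDE1, and Faah (0.28 ± 0.093), whose enzyme degrades anandamide.

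In the other lists, Pla2g7 (0.64 ± 0.096) and Pnpla6 (0.34 ± 0.11) were the 2 of 12 phospholipase and lysophospholipase genes that rose, the second encoding an enzyme that makes glycerophosphocholine; that share is near the 15.9% of all genes called. Enpp6 (1.07 ± 0.23), a choline-specific glycerophosphodiesterase gene of the oligodendrocyte lineage, rose in the hippocampus. Gpcpd1, the other tested glycerophosphodiesterase gene outside the family list, was at -0.30 ± 0.17 and did not pass. Gpc4 (0.76 ± 0.18), a glypican gene, was the only one of 4 tested substrates and regulators of GDE2 to pass, and Reck was at -0.32 ± 0.19. Of 8 genes of phosphatidylcholine and phosphatidylethanolamine synthesis none passed; Pcyt2 was at 0.19 ± 0.13 and Chpt1 at 0.22 ± 0.19.

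Between treatments 0 of the 42 genes passed edgeR's test in either tissue, with 0 at an unadjusted p under 0.05 in the hippocampus, against 2.4% of all genes, and 2 in the cortex, against 5.48% of all genes, so neither count was above the general rate. These 2 were Enpp6, at 2.91 ± 0.990 CPM with YB-1 and 1.48 ± 0.670 CPM with HSP70 (log2 fold change 0.98 ± 0.37), and Abhd4, at 125 ± 12.1 and 100.1 ± 17.4 CPM (0.31 ± 0.14), n = 5 each, both with an adjusted p of 0.858. With Enpp6 and Abhd4, the 2 genes with the smallest cortical p within each list, not over all 42 genes, were Gpcpd1 (-0.43 ± 0.23), Napepld (-0.50 ± 0.31), Lpar5 (0.71 ± 0.39), Plpp2 (0.39 ± 0.25), Lypla1 (-0.56 ± 0.29), Pld1 (0.29 ± 0.24), Selenoi (-0.38 ± 0.22), Chka (-0.22 ± 0.16), Reck (-0.36 ± 0.26) and Gpc4 (-0.13 ± 0.27). In the hippocampus the 2 with the smallest p within each list were Enpp6 (0.052 ± 0.29), Gpcpd1 (-0.012 ± 0.22), Plaat1 (0.38 ± 0.32), Plaat3 (0.19 ± 0.16), Lpar6 (0.96 ± 0.60), Plpp1 (-0.35 ± 0.25), Pld2 (-0.18 ± 0.15), Pla2g6 (-0.11 ± 0.17), Chka (-0.11 ± 0.15), Selenoi (-0.17 ± 0.26), Reck (-0.49 ± 0.30) and Prdx1 (0.14 ± 0.12).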

How the data were processed

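Poly(A) RNA was sequenced single-end from libraries made with a directional kit, per the labels' protocols. The deposited values are whole-number counts of reads per Ensembl gene; Trimmomatic, STAR, featureCounts and GRCm39 are named in the submitters' processing notes, and the strand setting is not given in the sources used here. The 12 summary entries, with 2.45% to 4.58% of reads outside genes and 4.12% to 4.58% ambiguous ones, were left out. Symbols were matched to GENCODE M21 (99.5% of identifiers), which also gave exon lengths; all 48 list symbols matched, 3 of them through RefSeq synonyms.

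The counts were fitted in edgeR 4.0.16 under R 4.3.3 (TMM, filterByExpr, robust quasi-likelihood fit, two-sided, Benjamini-Hochberg over all genes tested), with treatments compared within a tissue and the interaction and tissues over all 4 groups. SEs are the log2 fold change over the root of F. DESeq2 1.42.0, limma 3.58.1, other scaling, no filter, thinned counts, a replicate block and leaving out each library were alternatives. The fits were tested on data simulated with independent libraries. These leave out the shared deviation of same-numbered libraries, so they do not check the fits over both tissues for it. No 2 libraries of a group were duplicates (chi-square per degree of freedom at least 10.1). The members and lists were chosen with earlier results of these data known. The genes named are the members, the 5 genes on either side of Gdpd3, the 2 with the smallest p of each list and comparison, the 6 genes most like Gdpd3 (1 is not reported here) and the 3 most like its reverse among genes of at least 1 CPM on average.

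Whether equal numbers pair the tissues was checked by correlating deviations from group means over 14616 genes. All 10 same-numbered pairs exceeded 0.1 (YB-1 0.207 to 0.394, HSP70 0.198 to 0.624). So did 1 of 5 hippocampal and 3 of 5 cortical pairs between treatments, so this limit alone does not settle the pairing. The same-numbered cortical library was the best match for 4 of 5 hippocampal YB-1 and 5 of 5 HSP70 libraries. Hippocampal YB-1 replicate 1 matched cortical replicate 5 best. The numbers were taken to pair the tissues in the counts of same-numbered pairs and in the replicate block, which the labels do not state. The main fits of tissues and of the interaction had no block and treated same-numbered libraries as independent.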

Additional observations from a re-analysis of the deposited data

Results flagged for a closer look

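Of the 20 sets of 5 libraries (5 genes in 4 groups) examined for a library far from the others, 1 stood out, and chance gives about 1 in 20. In the hippocampus with YB-1, Gde1 was lowest in replicate 5, at 125 CPM, against 140.01 CPM in the next library; the gap was 0.740 of the group's range, above Dixon's critical value.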

How the results depend on the processing

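Over 16 log2 fold changes of Gdpd1, Gdpd2, Gdpd5 and Gde1 and 336 alternatives, none gained or lost a call and 16 turned the sign, all of values with no call. With limma-voom and quality weights the hippocampal treatment values became -0.073 for Gdpd1, 0.048 for Gdpd2 and 0.13 for Gdpd5. Thinning to the smallest total gave 0.069 for Gdpd2 in that comparison and -0.052 for its difference between tissues. Without 1 library the hippocampal values ranged over -0.072 to 0.15 for Gdpd1, -0.097 to 0.076 for Gdpd2 and -0.10 to 0.098 for Gdpd5. The cause was not tested. The Gdpd2 difference between tissues ranged from 0.73 to 0.87 with an adjusted p of 0.000191 to 0.00533.

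The cortical treatment count of 0 genes became 9 with no filter on low counts, 4 with DESeq2 and 2 with limma-voom, and 0 to 1 without 1 library (1 without HSP70 replicate 3). With the shared number of a treatment's tissues as a replicate block the tissue comparison called 2888 genes against 2320, and Gdpd2 was at 0.82; the block changed no call of a member. Between treatments the same number was the best match for 1 of 5 hippocampal and 2 of 5 cortical libraries. The correlations were -0.283 to 0.496 for hippocampal and -0.135 to 0.167 for cortical pairs. These numbers were not taken to pair, and a block on them also called 0 genes in both tissues. All 160 alternative group means of the 5 genes stayed within 1 SD. For those that leave out 1 of 5 libraries this was fixed in advance, since such a step cannot move a mean that far. The limit is also wide for Gdpd3, at 5.04 ± 6.70 CPM (SD) in the cortex with HSP70. Without 1 library that mean ran from 2.77 to 6.28 CPM. Of the 6 genes most like Gdpd3, 6 were kept at a minimum of 0.5 CPM and 2 (A2m and Tyrobp) by Spearman's rank correlation; of the 3 most like its reverse 2 and 0 were. Gdpd2 rests on 14 to 108 reads a library, which limits its precision.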

Other observations

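By rank correlation with Gdpd3, as the lower value of the tissues, C1s1 was the most alike gene (0.879). A2m and Tyrobp (0.875 each) came next, then Pnpla7 (0.855), P2ry6 (0.796) and Gfap (0.794). Of these, Pnpla7 is also a member of the phospholipase and lysophospholipase list. It encodes a lysophospholipase whose product, glycerophosphocholine, is a glycerophosphodiester. Its range was narrow beside that of Gdpd3, with 33.4 to 47.8 CPM with YB-1 and 30.8 to 54.8 CPM with HSP70 in the hippocampus, and 32.4 to 43.5 CPM with YB-1 and 21.5 to 41.4 CPM with HSP70 in the cortex. In each tissue 3 of its 4 lowest libraries were among the 4 lowest of Gdpd3. Pnpla7 was singled out, and C1s1, P2ry6 and Gfap are named, after their values were seen.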
